A study of Mus musculus with 6 samples.

Results

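The 9 collagen genes examined here are among 55291 genes of mouse skin in the deposited table. They were taken by gene symbol, with earlier results of these data known. They comprise 5 fibril-associated collagens with interrupted triple helices, called FACITs (Col12a1, Col14a1, Col16a1, Col19a1 and Col22a1), the 2 multiplexins (Col15a1 and Col18a1), and the 2 chains of type VIII collagen (Col8a1 and Col8a2). RNA sequencing was done on dorsal skin of mice about 6 weeks old (day 40 in the labels). Of the 6 samples, 3 were wild type on strain C57BL/6 and 3 were from strain B6.Cg-Fbn1Tsk/J, labelled Fbn1+/- and called Tsk here. The tight-skin allele is known as an internal duplication in Fbn1, the gene of the microfibril protein fibrillin 1, whereas +/- usually marks a lost copy, so heterozygosity for Tsk is assumed. Whole skin was lysed, so a change in the share of a cell type cannot be told apart from a change of RNA per cell.

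FACITs do not form fibrils of their own. They lie on the surface of collagen I fibrils or in basement membrane zones, and their non-collagenous domains reach outward to other matrix molecules. Multiplexins carry sugar chains and join basement membranes to the tissue beneath, and the end domain of type XVIII is released as endostatin. Type VIII collagen is a short-chain collagen that forms sheet-like networks, best known from blood vessel walls and the cornea.

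The coding sequences show how differently these proteins are built, and the part shown is the one that defines a collagen. In a triple helix glycine recurs in the pattern Gly-X-Y, and DNA encodes glycine as GG followed by any base. In the longest coding transcript of each gene in GENCODE M21, runs of at least 5 consecutive Gly-X-Y triplets took up 8.12% of the 3065 codons of Col12a1 and 13.8% of the 1798 codons of Col14a1. The share was 62.1% for Col16a1, 58.9% for Col19a1 and 63.2% for Col22a1. It was 25.0% for Col15a1 and 28.6% for Col18a1, and 58.9% and 63.5% for Col8a1 and Col8a2. Col12a1 and Col14a1 each had 5 runs, 249 codons within runs and a longest run of 32 triplets. Col19a1 had 11 runs with a longest of 57 triplets, and the longest run among the members was that of Col22a1 with 113. Below are the first 90 bases of the longest run of the members with the largest changes, 5′ to 3′, with the glycine codon that opens each Gly-X-Y triplet in capitals. Counted from the first base of the start codon, they begin at base 4549 in Col14a1, 8413 in Col12a1 and 2497 in Col19a1.
Col14a1: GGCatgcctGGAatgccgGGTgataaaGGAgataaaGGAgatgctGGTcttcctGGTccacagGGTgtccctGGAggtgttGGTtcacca
Col12a1: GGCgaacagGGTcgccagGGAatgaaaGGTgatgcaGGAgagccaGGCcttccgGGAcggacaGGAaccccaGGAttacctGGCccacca
Col19a1: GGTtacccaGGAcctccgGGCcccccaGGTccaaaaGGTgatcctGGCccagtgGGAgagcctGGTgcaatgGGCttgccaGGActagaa

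The comparison asked how expression of these collagens in Tsk skin differed from that in wild-type skin. Col14a1 rose about 4.41-fold in Tsk skin and Col19a1 fell to a level 2.82-fold lower, and these were the 2 of 9 members past the threshold (edgeR quasi-likelihood test, Benjamini-Hochberg adjusted p under 0.05 over all genes). Of 19971 genes tested, 3.42% passed, 2.72% higher and 0.696% lower, and all 9 members were among the tested genes. The members had a median log2 fold change of 0.39, with 6 above 0 and 3 below, against a median of -0.03 over all genes tested. In 3 of 9 members (Col12a1, Col14a1 and Col19a1) the 2 groups did not overlap, as in 24.7% of all genes tested. Whether every sample is a different mouse is not stated, and the p-values reflect spread among these samples only. Library totals ran from 17561271 to 19219622 counts, and Fbn1 stood at 302 ± 45.6 CPM across wild-type libraries against 1758 ± 301 CPM across Tsk libraries (SD, n = 3 per group). CPM are counts scaled to a common library total, here after multiplying each total by its TMM factor, which averaged 0.912 ± 0.103 for wild type and 1.10 ± 0.0346 for Tsk (SD).

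**Figure D1:**
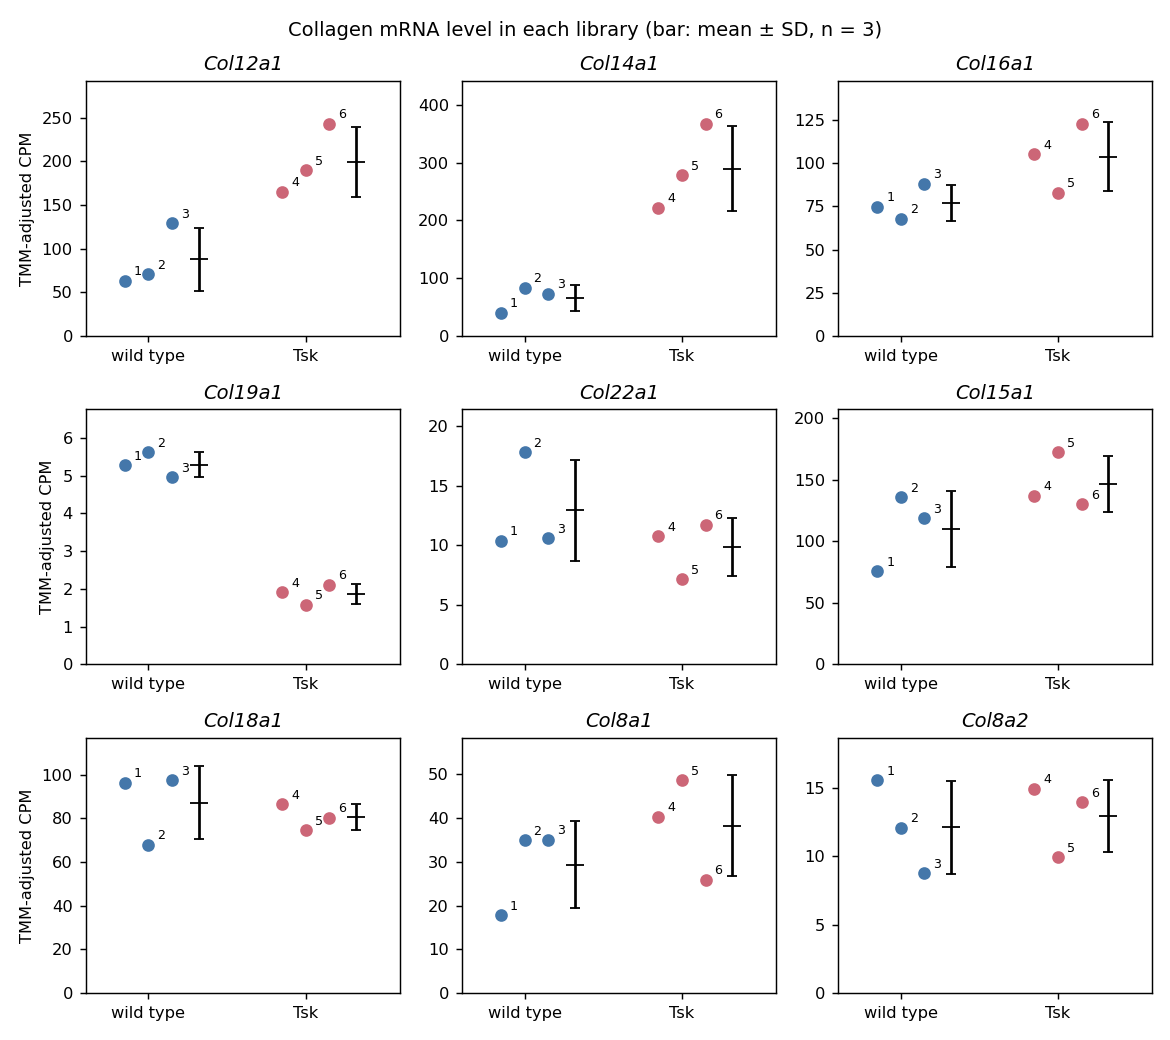
TMM-adjusted CPM of each collagen gene (vertical axes, linear from 0) in the 3 wild-type libraries (blue, replicates 1 to 3) and the 3 Tsk libraries (red, replicates 4 to 6); black bars are mean ± SD. The groups are apart for Col12a1, Col14a1 and Col19a1 and overlap for the other 6 genes.

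Collagens XII and XIV are close relatives that coat collagen I fibrils and bind partners such as tenascin-X and decorin. Col14a1 is on chromosome 15 (mm10, 55307750 to 55520803, plus strand). It stood at 40.1, 83.4 and 73.4 CPM in wild-type replicates 1, 2 and 3, and at 222, 278 and 367 CPM in Tsk replicates 4, 5 and 6. The lowest Tsk library was thus well above the highest wild-type library, and the counts behind these values were 722 to 1289 in wild type and 4288 to 7823 in Tsk. The log2 fold change was 2.14 ± 0.30 (SE, edgeR adjusted p = 0.0131), rank 111 of all genes by p. Without wild-type replicate 3 it was 2.24 and did not pass (edgeR adjusted p = 0.0608), where only 0.305% of genes passed. It passed in the other 5 fits with 1 library left out.

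Col12a1 is on chromosome 9 (79598991 to 79718831, minus strand). It stood at 63.3, 70.6 and 129 CPM in wild-type replicates 1, 2 and 3, and at 165, 190 and 243 CPM in Tsk replicates 4, 5 and 6. Wild-type replicate 3 was the highest of its group, yet below every Tsk library. The log2 fold change of 1.19 ± 0.28 missed the threshold (edgeR adjusted p = 0.0615), with a 95% interval from 0.54 to 1.83. Without wild-type replicate 3, the wild-type library nearest to the Tsk range, it was 1.59 and passed (edgeR adjusted p = 0.0438). That was the 1 pass in 6 fits with 1 library left out, where the edgeR adjusted p reached 0.158. DESeq2 also called Col12a1, at 1.19 ± 0.28 (adjusted p = 0.000815), a tool that called 7.97% of genes. Col12a1 did not pass with limma-voom (adjusted p = 0.0595). Nor did it with the muscle or the adipocyte score as a covariate (edgeR adjusted p = 0.304 and 0.240). It passed in 6 of 18 alternative fits.

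Within each library, the count of Col14a1 over that of Col12a1 was 0.633, 1.18 and 0.569 in wild type and 1.34, 1.47 and 1.51 in Tsk. The lowest Tsk ratio lay above the highest wild-type ratio, and Col14a1 had more counts than Col12a1 in all 3 Tsk libraries and in wild-type replicate 2. The mean log2 ratio went from -0.41 ± 0.57 to 0.52 ± 0.09 (SD, n = 3 per group), a difference of 0.93. The two-sided exact permutation p was 0.10, the smallest that 3 against 3 allows, and 0.40 after Benjamini-Hochberg adjustment over the 4 ratios tested. Together both genes took 53.3 to 66.1% of the FACIT counts in wild type and 76.6 to 83.6% in Tsk.

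Collagen XVI, a FACIT of fibrillin-containing microfibrils in the upper dermis, is encoded by Col16a1 on chromosome 4 (130047840 to 130099283, plus strand). It stood at 75.0, 67.9 and 88.2 CPM in wild type and 105, 83.0 and 123 CPM in Tsk. Tsk replicate 5 fell inside the range of wild type, while the other Tsk libraries lay above it. Col16a1 did not pass, at a log2 fold change of 0.43 ± 0.17 (edgeR adjusted p = 0.215), with a 95% interval from 0.03 to 0.83.

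Collagen XIX is a rare FACIT of basement membrane zones, known from developing muscle, neurons and the smooth muscle of the oesophagus. Col19a1 is on chromosome 1 (24261890 to 24587472, minus strand). It stood at 5.28, 5.63 and 4.96 CPM in wild type and at 1.91, 1.59 and 2.11 CPM in Tsk. Both groups were tight and far apart, with 80 to 95 counts per wild-type library and 34 to 45 per Tsk library. Col19a1 changed by -1.50 ± 0.20 on the log2 scale (edgeR adjusted p = 0.0115, 95% interval -1.96 to -1.03), rank 92 of all genes by p, and only 0.406% of genes had a fold change as low or lower. Without wild-type replicate 3 the change was -1.53 and did not pass (edgeR adjusted p = 0.0548), and it passed in the other 5 fits with 1 library left out. Of the 5 FACIT genes, 1 thus rose and 1 fell by edgeR, where 2.72% of all genes passed higher and 0.696% lower. An unadjusted edgeR p under 0.05 was reached by 4 of the 5, against 20.1% of all genes. DESeq2 called 3 of them, against 7.97% of all genes. The difference between these shares was not tested, and the genes were chosen with earlier results of these data known.

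Collagen XXII marks tissue junctions, foremost the junction of muscle and tendon. Col22a1, on chromosome 15 (71795795 to 72034227, minus strand), stood at 10.4, 17.9 and 10.6 CPM in wild type and 10.8, 7.14 and 11.7 CPM in Tsk. The groups overlapped, and wild-type replicate 2 alone stood above all Tsk libraries. Col22a1 did not pass, at a log2 fold change of -0.39 ± 0.26 (edgeR adjusted p = 0.461) and a 95% interval from -0.99 to 0.21. The value was -0.079 when wild-type replicate 2 was left out, and -0.20 when Tsk replicate 5 was.

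**Figure D2:**
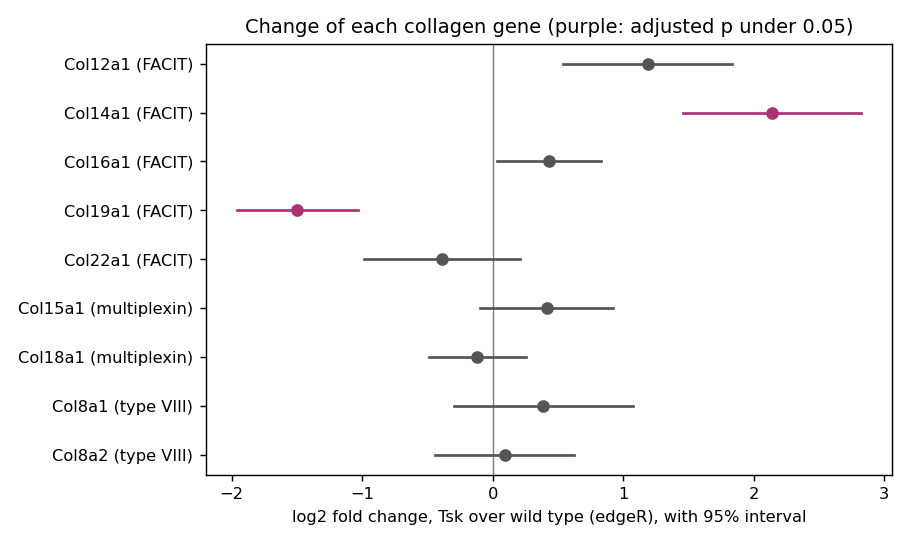
Log2 fold change of each collagen gene, Tsk over wild type (horizontal axis), from the edgeR fit over all genes; points are estimates, lines 95% intervals, and purple marks an adjusted p under 0.05. Col14a1 at 2.14 and Col19a1 at -1.50 are marked, and the interval of Col12a1 from 0.54 to 1.83 lies above 0 without an adjusted p under 0.05.

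Neither multiplexin passed, and by edgeR 0 of the 4 multiplexin and type VIII genes did. None of these 4 had an unadjusted edgeR p under 0.05, against 20.1% of all genes, and DESeq2 called 0 of them. Col15a1, on chromosome 4 (47208161 to 47313167, plus strand), encodes a collagen that ties basement membranes of vessels, nerves and muscle to nearby fibrils. It stood at 75.8, 136 and 119 CPM in wild type and 137, 173 and 130 CPM in Tsk. Wild-type replicate 1 was low and Tsk replicate 5 high, while the other 4 libraries ran close together. Its log2 fold change was 0.41 ± 0.22 (edgeR adjusted p = 0.346, 95% interval -0.09 to 0.92). Leaving out wild-type replicate 1 gave 0.23, and leaving out Tsk replicate 5 gave 0.28. With the muscle score as a covariate it was 0.91 (edgeR adjusted p = 0.0676), and with the adipocyte score 0.073 (edgeR adjusted p = 0.948).

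Col18a1, on chromosome 10 (77052178 to 77166548, minus strand), encodes the basement membrane collagen that gives rise to endostatin. It stood at 96.4, 68.0 and 97.4 CPM in wild type and 86.5, 74.6 and 80.4 CPM in Tsk, so every Tsk library lay inside the wild-type range. The log2 fold change of -0.12 ± 0.16 had a 95% interval from -0.49 to 0.25 (edgeR adjusted p = 0.743). Its sign depended on the scaling, at 0.14 with library totals alone, and with 1 library left out it ran from -0.26 to -0.015. The antisense neighbour Slc19a1 overlaps Col18a1 and held 4.99% as many counts, summed over the 6 libraries. No source used here states the strand setting of the counting. Overlapping genes of the other members, summed likewise, each held at most 0.132% as many counts as the member.

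The ratio of Col18a1 to Col15a1 counts was 1.27, 0.501 and 0.820 in wild type and 0.630, 0.432 and 0.617 in Tsk. The groups overlapped, and the difference in log2 ratio was -0.55 (two-sided exact permutation p = 0.30). Leaving out wild-type replicate 1 gave -0.22, and leaving out wild-type replicate 2 gave -0.89.

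The 2 chains of type VIII collagen can assemble together or each alone. Col8a1, on chromosome 16 (57624258 to 57754737, minus strand), stood at 17.8, 35.0 and 35.1 CPM in wild type and 40.4, 48.6 and 25.9 CPM in Tsk. Wild-type replicate 1 and Tsk replicate 6 were the lowest libraries. For Col8a1 the log2 fold change was 0.39 ± 0.30 (edgeR adjusted p = 0.525, 95% interval -0.30 to 1.07), and it ran from 0.15 without wild-type replicate 1 to 0.61 without Tsk replicate 6. Col8a2, on chromosome 4 (126286793 to 126314330, plus strand), stood at 15.6, 12.1 and 8.74 CPM in wild type and 14.95, 9.94 and 13.95 CPM in Tsk, with each group spanning nearly the same range. Its log2 fold change was 0.09 ± 0.24 (edgeR adjusted p = 0.874, 95% interval -0.44 to 0.63), and it turned to -0.087 without wild-type replicate 3 and to -0.024 without Tsk replicate 4. The Col8a2 to Col8a1 count ratio ran from 0.2498 to 0.872 in wild type and from 0.205 to 0.538 in Tsk, and the difference in log2 ratio was -0.29 (two-sided exact permutation p = 0.70). It turned to 0.23 without wild-type replicate 1 and to 0.08 without Tsk replicate 5.

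**Figure D3:**
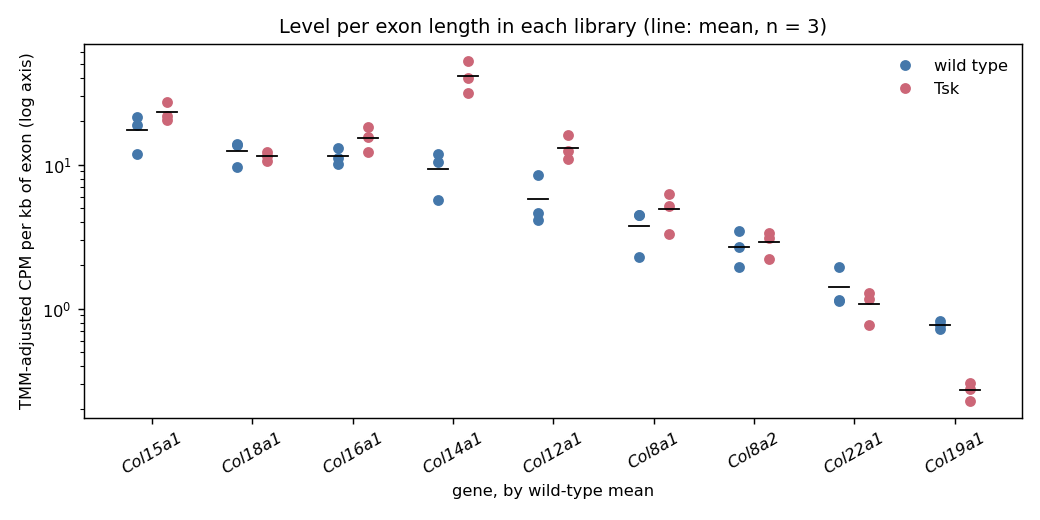
TMM-adjusted CPM per kb of merged exon (vertical log axis) of each gene in each library, ordered by wild-type mean; blue points are wild type, red points Tsk, and lines are means of 3 libraries. Col14a1 is at 9.36 CPM per kb in wild type and is the top gene in Tsk, at 41.2 CPM per kb.

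Per kb of exon, merged over all GENCODE M21 transcripts of a gene, Col15a1 was the highest member in wild type at 17.4 ± 4.88 CPM per kb (SD, n = 3). Col18a1 followed at 12.4, Col16a1 at 11.4, Col14a1 at 9.36, Col12a1 at 5.75, Col8a1 at 3.74, Col8a2 at 2.70, Col22a1 at 1.41 and Col19a1 at 0.768 CPM per kb. The ranges of neighbours in this order overlapped over the 3 libraries down to Col8a2. Within libraries, though, Col14a1 was above Col12a1 and Col12a1 above Col8a1 in 3 of 3, and the other neighbours down to Col8a2 kept their order in 2 of 3, while Col8a2, Col22a1 and Col19a1 were apart from each other. In Tsk, Col14a1 was first at 41.2 ± 10.5 CPM per kb, apart from Col15a1 at 23.1 ± 3.59. Col16a1 at 15.4, Col12a1 at 13.1 and Col18a1 at 11.5 CPM per kb came next, and Col16a1 overlapped Col12a1, as Col12a1 did Col18a1. Col22a1 and Col19a1 were again last, at 1.07 and 0.272 CPM per kb. The summed level of all 9 genes was 487 ± 83.6 CPM in wild type and 882 ± 108 in Tsk, without overlap between libraries. Col12a1 and Col14a1 together took 30.9 ± 4.93% of the counts of the 9 genes in wild type and 54.9 ± 5.95% in Tsk. The multiplexins summed to 172 to 216 CPM in wild type and 211 to 247 in Tsk, which overlapped.

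FACIT transcripts were also set against those of the fibrils on which the proteins lie. The summed count of Col12a1, Col14a1 and Col16a1 over that of Col1a1, Col1a2 and Col3a1 was 0.0296, 0.0220 and 0.0273 in wild type and 0.0255, 0.0307 and 0.0177 in Tsk. The Tsk libraries held both the highest and the lowest ratio. The difference in log2 ratio was -0.12, less than the SD of 0.22 in wild type and 0.41 in Tsk (two-sided exact permutation p = 0.70), and it was 0.10 without Tsk replicate 6. Col1a1 averaged 3370 ± 834 CPM over wild-type and 12023 ± 6964 CPM over Tsk libraries, a log2 fold change of 1.84 ± 0.44 that did not pass (edgeR adjusted p = 0.0613).

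**Figure D4:**
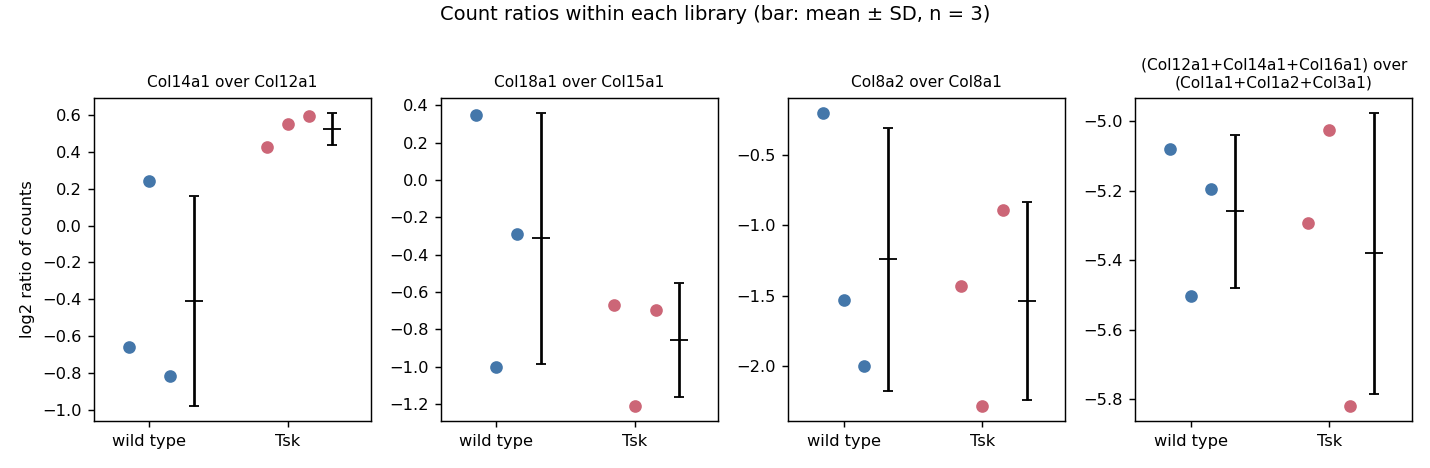
Log2 ratio of counts within each library (vertical axes, each with its own range) for 3 pairs of members and for fibril-associated over fibril-forming collagens; points are libraries (blue wild type, red Tsk) and black bars mean ± SD of 3. The lowest Tsk value of Col14a1 over Col12a1, 0.42, lies above the highest wild-type value, 0.24, and the other 3 ratios overlap between groups.

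Of 10 tested fibril collagens 1 was called by edgeR, against 3.42% of all genes, and it fell. Col24a1, which encodes a fibril collagen best known from bone, changed by -1.22 ± 0.24 (edgeR adjusted p = 0.0318), from 10.1 ± 1.89 to 4.35 ± 1.12 CPM. It did not pass without wild-type replicate 2, wild-type replicate 3, Tsk replicate 5 or Tsk replicate 6. The median log2 fold change of these 10 genes was 0.93, and 8 were above 0. By unadjusted edgeR p, 7 of the 10 were under 0.05, and DESeq2 called 6, against 20.1% and 7.97% of all genes. Of 11 tested molecules that bind the fibril surface, 2 rose, the leucine-rich repeat protein Prelp by 1.88 ± 0.25 and dermatopontin (Dpt) by 1.22 ± 0.22 (edgeR adjusted p = 0.0105 and 0.0222). Prelp did not pass without wild-type replicate 3, nor did Dpt without that library, Tsk replicate 5 or Tsk replicate 6. Of these 11 genes 6 had an unadjusted edgeR p under 0.05, and DESeq2 called 5. Among collagen receptors 1 of 7 rose, the receptor tyrosine kinase Ddr2, by 1.50 ± 0.22 (edgeR adjusted p = 0.0138), which did not pass without wild-type replicate 3. Of the 7 receptors 2 had an unadjusted edgeR p under 0.05, and DESeq2 called 1.

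Of 14 basement membrane genes that neighbour type XV and XVIII collagen, 3 rose by edgeR, with a median of 0.42 over all 14. They were the laminin chains Lama4 (1.16 ± 0.17) and Lamb1 (1.05 ± 0.19) and the linker nidogen Nid1 (1.46 ± 0.32), at edgeR adjusted p = 0.0134, 0.0224 and 0.0461. None of these 3 passed without wild-type replicate 3, and Lamb1 and Nid1 did not pass without Tsk replicate 5 or 6 either. Of all 14, 5 had an unadjusted edgeR p under 0.05 and DESeq2 called 5. Over all genes these shares were 20.1% and 7.97%, and edgeR called 3.42%. Of 7 proteases known or proposed to release endostatin, Mmp14, a membrane-bound matrix protease, rose by 1.26 ± 0.26 (edgeR adjusted p = 0.0378), which passed in 1 of 6 fits with 1 library left out, the fit without Tsk replicate 5. The largest change in this list by size was that of the collagenase gene Mmp13, at -2.49 ± 0.62 without passing (edgeR adjusted p = 0.0686), on at most 43 counts per library. Of these 7 genes 2 had an unadjusted edgeR p under 0.05, and DESeq2 called 2. Cathepsin L (Ctsl), known to cut endostatin free, stood at 0.11 ± 0.12 (edgeR adjusted p = 0.691). With the muscle or the adipocyte score as a covariate, Col24a1, Prelp, Dpt, Ddr2, Nid1 and Mmp14 passed in neither fit, and Lama4 and Lamb1 each passed in 1. The other FACITs and type X collagen were scarce in this skin. Col9a1, Col9a2 and Col10a1 had at most 16 counts in any library and were not tested, and Col20a1 (-0.18 ± 0.18) and Col9a3 (0.23 ± 0.32) did not pass. Of 4 transmembrane collagens 0 passed by edgeR, 0 had an unadjusted p under 0.05 and 0 were called by DESeq2, with Col17a1, a collagen of the epidermal hemidesmosome, at -0.40 ± 0.26 and Col23a1 at -0.26 ± 0.22.

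Genes with the profiles most like Col14a1 across the 6 libraries were Htra3, Fstl1 and Pamr1, at root mean square differences of 0.093, 0.20 and 0.22 in centred log2 CPM among 15318 candidates. Htra3 encodes a secreted serine protease and Fstl1 a secreted follistatin-like glycoprotein. For Col19a1 the nearest were Mustn1, Acsl6 and Pdlim3, at 0.15, 0.18 and 0.19. Mustn1 and Pdlim3 are known from skeletal muscle, and Acsl6 activates fatty acids. Those 3 had log2 fold changes of -1.37, -1.29 and -1.24, which had to lie near that of Col19a1 because they were chosen by profile. Col15a1 did not pass and so falls outside the rule for such neighbours, but was added after its values were seen, since its nearest profiles were the basement membrane genes Nid2, Col4a2 and Col4a1, at 0.055, 0.068 and 0.070. Among the members, Col15a1 and Col8a1 were the pair with the smallest difference, at 0.20, and Col14a1 and Col19a1 the pair with the largest, at 1.85.

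Markers of several cell types differed between the groups beside these results. All 9 fibroblast markers, which include Col1a2 and the fibril partner Dpt, had fold changes above 0, and 2 passed. Over all genes tested, 3.42% passed by edgeR, 20.1% had an unadjusted edgeR p under 0.05 and DESeq2 called 7.97%. Of the 9 fibroblast markers, 7 had an unadjusted edgeR p under 0.05 and DESeq2 called 6. Their summed level was 1586 to 2661 CPM in wild type and 4312 to 10258 in Tsk, with the lowest library, wild-type replicate 1, also lowest for Col14a1 and Col12a1, and the highest, Tsk replicate 6, also highest for both. That sum was mostly Col1a2, itself a fibril collagen, at 1936 ± 504 CPM in wild type and 5695 ± 3169 CPM in Tsk. Of 20 skeletal muscle markers 17 were below 0 and 3 above, with Myh2 the highest at 1.26 ± 0.32. None passed by edgeR, while 14, Myh2 among them, had an unadjusted edgeR p under 0.05 and DESeq2 called 16. Ttn was the most abundant of these markers, at 120356 ± 33606.5 CPM in wild type and 72075 ± 5954 CPM in Tsk. The sum of the 20 markers was 170464, 309248 and 272003 CPM in wild type and 163071, 146066 and 133601 in Tsk. In the same order, Col19a1 stood at 5.28, 5.63 and 4.96 CPM in wild type and at 1.91, 1.59 and 2.11 CPM in Tsk. With the muscle score as a covariate Col19a1 stood at -1.50 ± 0.27 and Col14a1 at 2.65 ± 0.41, and neither passed (edgeR adjusted p = 0.0657 and 0.0769), in a fit that called 0.491% of genes.

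All 11 adipocyte markers were above 0 and 2 passed. Of the 11, 8 had an unadjusted edgeR p under 0.05 and DESeq2 called 6, against 20.1% and 7.97% of all genes. The adipocyte sums were 577 to 1022 CPM for wild type and 963 to 4735 CPM for Tsk, where replicate 5 was highest. With the adipocyte score as a covariate, a fit that called 0.34% of genes, Col14a1 stood at 2.26 ± 0.44 and Col19a1 at -1.24 ± 0.33 without passing (edgeR adjusted p = 0.0966 and 0.194). Of endothelial markers 3 of 10 passed, all higher, against 3.42% of all genes. Of the 10, 9 had an unadjusted edgeR p under 0.05 and DESeq2 called 4. The endothelial sums were 182 to 237 CPM in wild type and 278 to 442 CPM in Tsk. Tsk replicate 5, the highest library of that sum, was also highest for Col15a1 and Col8a1. Smooth muscle and pericyte markers (1 of 8 passed, higher) summed to 289 to 428 CPM in wild type and 443 to 608 in Tsk. Of these 8, 6 had an unadjusted edgeR p under 0.05 and DESeq2 called 5. Schwann cell markers (1 of 7 passed, higher) summed to 168 to 252 and 239 to 384 CPM. Of these 7, 4 had an unadjusted edgeR p under 0.05 and DESeq2 called 1. Of the 6 tested tendon markers 0 passed by edgeR, 3 had an unadjusted p under 0.05 and DESeq2 called 1. They summed to 49.2 to 157 CPM in wild type and 75.0 to 114 in Tsk, with wild-type replicate 2, the highest library for Col22a1, at 157 and wild-type replicate 3 at 154 CPM. That sum was mostly Thbs4, at 111 ± 61.0 CPM in wild type and 60.9 ± 5.88 CPM in Tsk, with a log2 fold change of -0.87. In contrast, 4 of the 6 genes (Fmod, Tnmd, Comp and Mkx) had fold changes above 0, and the median was 1.49. Epidermal markers were at 3512 to 5570 CPM in wild type and 2935 to 5416 in Tsk. Of these 8 markers 1 passed, higher, while 5 were below 0 and 3 above, with a median of -0.25. An unadjusted edgeR p under 0.05 was reached by 1 of them, and DESeq2 called 1. Hair follicle markers (4 of 8 passed, higher) were at 18.7 to 34.9 and 45.8 to 49.2 CPM. Of these 8, 5 had an unadjusted edgeR p under 0.05 and DESeq2 called 3. Immune markers were at 127 to 226 and 204 to 438 CPM. Of the 7 immune markers 0 passed by edgeR, 3 had an unadjusted p under 0.05 and DESeq2 called 1. No marker found in the table was at 0 in all libraries. The muscle and adipocyte markers themselves differed between the groups, so the fits with their scores cannot separate cell composition from genotype. No fibroblast score was fitted, and the part of cell composition in the collagen results was not tested.

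**Figure D5:**
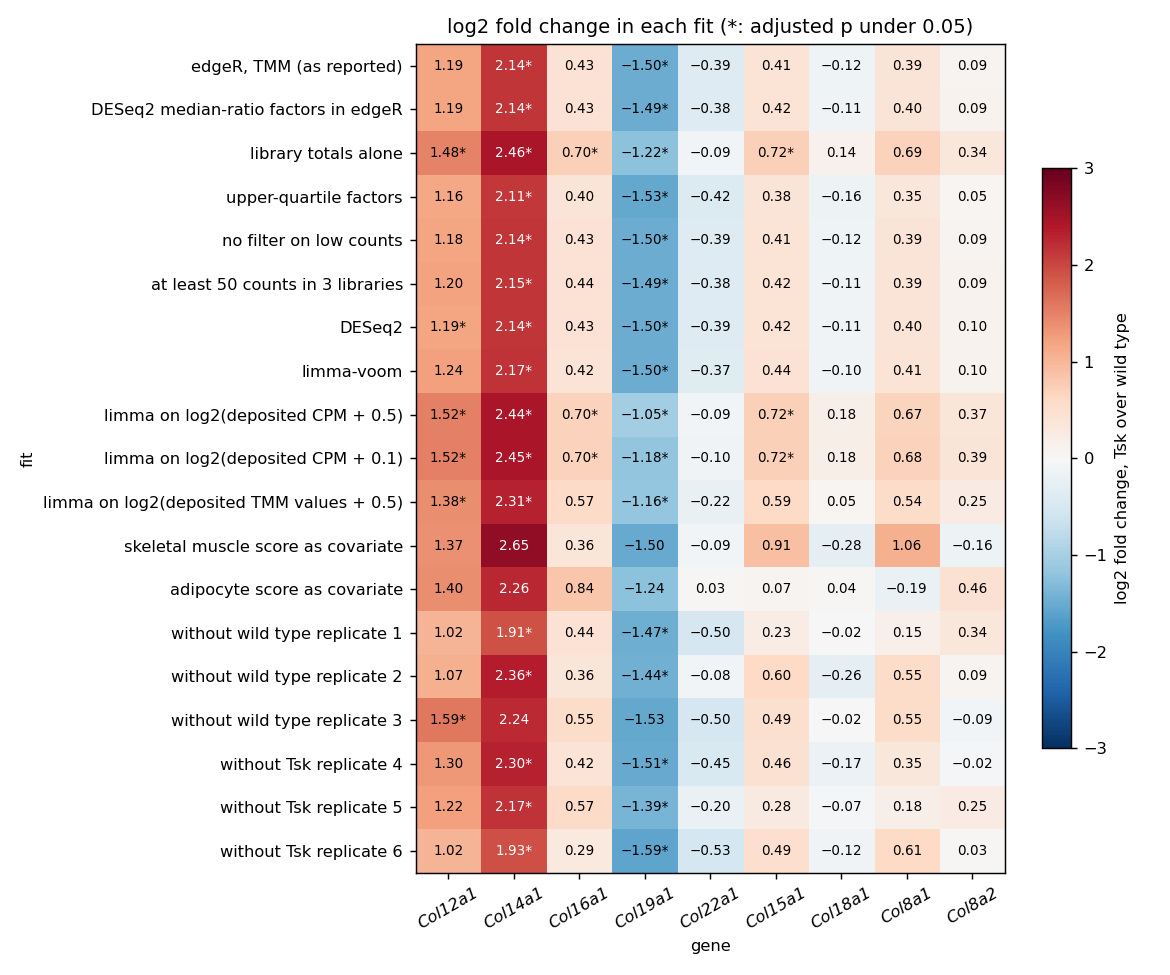
Log2 fold change of each gene (columns) in the edgeR fit as reported and in 18 alternative fits (rows); red is higher and blue lower in Tsk, and an asterisk marks an adjusted p under 0.05. Col14a1 and Col19a1 each carry an asterisk in 15 of 18 alternatives and Col12a1 in 6.

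Scaling moved all genes together, and with library totals alone the median of all genes was 0.25 in place of -0.03. There Col12a1, Col15a1 and Col16a1 joined Col14a1 and Col19a1 among the calls, at 1.48, 0.72 and 0.70, in a fit that called 8.97% of genes. The same 5 were called by limma on the deposited CPM, which called 9.59% of genes with a pseudocount of 0.5 and 9.45% with 0.1. Limma on the deposited TMM values called Col12a1, Col14a1 and Col19a1, and 6.4% of genes. Col14a1 stayed between 1.91 and 2.65 and Col19a1 between -1.59 and -1.05 in all 18 alternatives.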

How the data were processed

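Total RNA of 6 dorsal skin samples was depleted of ribosomal RNA and made into stranded libraries, per the labels' protocols. STAR, Partek 7.0 and bcl2fastq 2.19.1.403 are named with mm10, per the submitters' processing notes. The authors deposited estimated counts per gene, which were rounded to whole numbers here. They also deposited CPM values and a TMM-normalised signal, both used only in alternatives. Symbol, span and strand of 52904 of 55291 genes matched GENCODE M21, after subtracting 1 from the deposited end.

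The test was that of edgeR 4.0.16 under R 4.3.3 (quasi-likelihood, robust, TMM factors, default filter with minimum count 10 and total 15). Ratios added 0.5 to counts. Alternatives were other scalings and filters, DESeq2 1.42.0, limma 3.58.1, a muscle or adipocyte score (mean log2 CPM of its markers) as covariate, and each library left out. No pair of libraries within a group agreed within sampling noise (smallest chi-square per degree of freedom 8.02).

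The members and the gene lists (158 of 159 symbols matched) were chosen with earlier results of these data known. Named genes are all 9 members, up to 4 called genes of each context list (the 2 most abundant where none was called), and the 3 nearest profiles, with mean log2 CPM no lower than 1, of each called member. Ctsl, Mmp13, Col1a1, Col1a2, the tendon markers and the untested collagens were named beyond this rule, after their values were seen. Deposited TPM values, which divide by the gene span with introns, were not used.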

Additional observations from a re-analysis of the deposited data

How the results depend on the processing

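Of 9 members 2 were called, and 5 were with library totals alone or with limma on the deposited CPM (pseudocount 0.5 or 0.1), 0 with the muscle or the adipocyte score as covariate, and 1 to 2 with 1 library left out. The count over all genes was 683. It was 1791 with library totals alone, 1157 without a filter, 1592 with DESeq2, 1916 and 1887 with limma on the deposited CPM (pseudocount 0.5 and 0.1), 1279 with limma on the TMM values, 98 and 68 with the muscle and adipocyte scores, and 63 to 1381 with 1 library left out. The cause was not tested. Log2 fold changes of Col18a1, Col22a1, Col8a1 and Col8a2, none of which passed, changed sign in some alternatives. Col18a1 was 0.14 with library totals alone, 0.18 with limma on the deposited CPM at either pseudocount, 0.047 with limma on the TMM values and 0.040 with the adipocyte score. With that score Col22a1 was 0.031 and Col8a1 was -0.19, against -0.39 and 0.39 as reported. Col8a1 was 1.06 with the muscle score, without passing (edgeR adjusted p = 0.115). Col8a2 was -0.16 with the muscle score and ran from -0.087 to 0.34 with 1 library left out. The log2 ratio differences with 1 library left out ran from -0.67 to 0.23 for Col8a2 to Col8a1 and from -0.30 to 0.10 for fibril-associated to fibrillar collagens. The directions of Col12a1, Col14a1, Col15a1, Col16a1 and Col19a1 held in all 18 alternatives. Depth limits Col19a1 most, with 34 to 95 counts per library. No paired analysis was done, because the labels give no pairing and the groups share no replicate numbers.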
